A study of Mus musculus with 10 samples.

Results

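*Bhmt* and 9 enzymes of the pathways around it, *Bhmt2*, *Dmgdh*, *Chdh*, *Mtr*, *Mat2a*, *Ahcy*, *Tdh*, *Gldc* and *Shmt2*, were followed across the expression arrays of mouse embryonic stem cells (mESCs) in which an activator had been recruited to the *Hottip* or the *Hoxa13* promoter. These 10 genes, of 20972 genes with a name on the array, were represented by 18 of 55681 probes, each taken through the transcript accession printed for it. *Bhmt* was chosen by its high signal after *Hottip* gRNAs on these arrays, so its values in every comparison are given as a description without a test. The other 9 genes were chosen for their place in the pathway or beside *Bhmt* on the chromosome, and they were tested. They and the tests were chosen with earlier results of these data known. The question was whether the high signal of *Bhmt* extended to its tandem paralog *Bhmt2*, to the adjacent *Dmgdh* or to the rest of the pathway.

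E14 mESCs, a line of 129/Ola background kept undifferentiated with the cytokine Lif, had received a plasmid for dCas9-VP160, a nuclease-dead Cas9 joined to repeats of a viral activation domain, together with 5 guide RNA (gRNA) plasmids against the promoter of the long noncoding RNA *Hottip* (4 arrays) or 5 against that of *Hoxa13* (3 arrays). The control (3 arrays) had received control gRNAs, which the labels describe as non-targeting, with dCas9 alone, so that it may differ from both other groups by the activation domain as well as by the guides. Puromycin at 2 μg/ml was present for 24 h, RNA was taken 48 h after transfection, and the labels call the samples biological replicates of 1 cell line. As these are bulk samples, more cells with a transcript and more transcript per cell cannot be told apart.

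Betaine-homocysteine methyltransferase, encoded by *Bhmt*, moves a methyl group from betaine to homocysteine and so makes methionine, chiefly in liver and kidney. Choline is oxidised to betaine by choline dehydrogenase (*Chdh*), and the dimethylglycine left after the transfer is demethylated in mitochondria by *Dmgdh*. Methionine is then turned into S-adenosylmethionine, the methyl donor of DNA and histone methylation, and returned to homocysteine through S-adenosylhomocysteine. Mouse ES cells are known for a further source of one-carbon units, the breakdown of threonine by threonine dehydrogenase (*Tdh*) to glycine. From glycine the glycine cleavage system passes one-carbon units on to folate.

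Levels are log2 of the processed spot signal minus the array's own 75th percentile on the same scale, and a difference is a difference of group means on that scale. An array measured 31.9% to 41.4% of its probes well above background, outlier spots made up between 0.312% and 7.28% of each array, and *Hoxa13* gRNA replicate 1 had the steepest spike-in slope (1.16 against 0.900 to 0.982 on the other arrays). All *Hottip* gRNA and control arrays shared 1 slide with *Hoxa13* gRNA replicate 3, and *Hoxa13* gRNA replicates 1 and 2 shared a different slide. As a check of the labels, the brighter of 2 *Hoxa13* probes (A_55_P1970075) lay between 3.17 and 4.16 on the arrays labelled *Hottip* gRNA, between −4.80 and −3.68 on those labelled *Hoxa13* gRNA and between −5.84 and −3.46 on control arrays. It was well above background on 4 of 4 arrays labelled *Hottip* gRNA, on 0 of 3 labelled *Hoxa13* gRNA and on 0 of 3 controls, so the gene targeted in the arrays labelled *Hoxa13* gRNA was not detectably higher there, and *Hottip* itself was not analysed here. The labelled cell type was checked with 7 ES cell markers, *Pou5f1*, *Nanog*, *Sox2*, *Esrrb*, *Klf4*, *Zfp42* and *Dppa2*, and 7 of 7 were well above background on all 10 arrays.

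The start regions of the genes beside each other on chromosome 13 are shown because they differ in sequence type and because *Bhmt2* and *Dmgdh* share theirs. The windows run from 250 bases before to 50 bases after the annotated start (RefSeq, GRCm38.p6), and 9 of the 10 genes have one in the table used, *Tdh* being the exception. Each is written 5′ to 3′ on the gene's strand with CG dinucleotides in capitals. The first is that of *Bhmt* (chr13:93637709-93638008, minus strand) and the second that of *Dmgdh* (chr13:93674186-93674485, plus strand).
Bhmt: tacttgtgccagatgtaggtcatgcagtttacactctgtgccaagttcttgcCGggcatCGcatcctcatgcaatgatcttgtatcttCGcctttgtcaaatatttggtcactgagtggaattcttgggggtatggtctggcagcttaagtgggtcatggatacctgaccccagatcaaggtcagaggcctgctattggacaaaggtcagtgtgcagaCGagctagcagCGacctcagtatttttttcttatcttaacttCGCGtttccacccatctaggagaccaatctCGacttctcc
Dmgdh: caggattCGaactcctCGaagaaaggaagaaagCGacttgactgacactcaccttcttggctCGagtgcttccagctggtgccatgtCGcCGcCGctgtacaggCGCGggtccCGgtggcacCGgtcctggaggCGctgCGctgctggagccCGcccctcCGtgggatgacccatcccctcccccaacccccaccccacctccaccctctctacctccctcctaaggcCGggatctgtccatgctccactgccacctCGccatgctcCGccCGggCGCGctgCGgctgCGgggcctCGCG

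The *Bhmt* window holds 8 CG dinucleotides and 48.0% G and C, near the median of 7 CG over all 32851 windows of this length. That of *Dmgdh* holds 25 CG (68.0% G and C) and that of *Bhmt2* 26 CG (73.7%), above 81.6% and 83.1% of all windows. The starts of *Bhmt2* and *Dmgdh* lie 134 bases apart and point away from each other, so their windows share 233 bases, whereas the starts of *Bhmt* and *Bhmt2* lie 36544 bases apart. The letters TTTAT and TTTAC, which posterior Hox and Cdx proteins prefer, were searched on both strands. The *Bhmt* window has 0 TTTAT and 1 TTTAC, and the windows of *Bhmt2* and *Dmgdh* have 0 of either, where 40.0% and 31.5% of all windows hold at least 1 TTTAT and 1 TTTAC. These matches describe the letters only.

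The 5 *Hottip* guides are shown because they were the sequences given to the cells with the high *Bhmt* signal. The 10 bases nearest the site of the NGG motif, which Cas9 needs beside its target, are in capitals.
mHottip_pro_sg1: gcagtaagaaGGTAAACTCG
mHottip_pro_sg2: tctcctgactTTAGCGGTCC
mHottip_pro_sg3: tacccaggacCGCTAAAGTC
mHottip_pro_sg4: ggatcagggaAGGTTTTATT
mHottip_pro_sg5: gggatcagggAAGGTTTTAT

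With NGG behind them, these 10 bases occur in 1 to 3 of the 32851 windows (0.00304% to 0.00913%), and all 20 bases of each guide occur with NGG in the *Hottip* window. They occur in 0 of the 11 windows of the 9 genes that have one. The search covered these windows only and not the rest of the genome.

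*Bhmt* was represented by 3 probes for 1 transcript. On the brightest (A_55_P2105181) the 4 *Hottip* gRNA arrays stood at 1.32, 1.64, 1.89 and 1.95, the 3 control arrays at −3.62, −4.21 and −4.46 and the 3 *Hoxa13* gRNA arrays at −3.68, −4.88 and −3.85. All *Hottip* gRNA arrays were therefore high, and the other 6 arrays overlapped each other at a level not well above background. The group means were 1.70 ± 0.287 (SD, n = 4), −4.09 ± 0.434 (SD, n = 3) and −4.13 ± 0.650 (SD, n = 3). The difference from the control was 5.79 (standard error 0.40) after *Hottip* gRNAs and −0.04 (standard error 0.43) after *Hoxa13* gRNAs. Since a probe not well above background has only an upper limit, a bound was taken for the first, at least 32.9-fold with this processing. Each control array entered that bound with the probe's signal or with its dimmest probe well above background, whichever was brighter. The bound is approximate, as a spot brighter than that dimmest probe can also fail the flag. Control replicate 3 did so on the third *Bhmt* probe, at −1.82, where its dimmest probe well above background stood at −3.32. Under normexp background correction the difference was smaller, at 4.66. Set against the *Hoxa13* gRNA arrays the same approximate bound was 30.0-fold.

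The second *Bhmt* probe (A_55_P2105180) stood at 0.72, 1.32, 1.86 and 2.11 after *Hottip* gRNAs and between −4.32 and −3.79 in the control. The approximate bound was 31.3-fold. On this probe the *Hoxa13* gRNA arrays, at −4.44, −4.72 and −4.66, lay below each control array, as did 7.14% of all probes tested, with neither group well above background. The third (A_55_P2103963) stood at −1.30, −0.28, −0.92 and −1.25 after *Hottip* gRNAs, at −4.14, −3.15 and −1.82 in the control and at −3.33, −2.32 and −4.27 after *Hoxa13* gRNAs. Its *Hottip* gRNA and control groups did not overlap either, but its difference from the control was 2.10 (standard error 0.60, approximate bound 4.08-fold). The 3 probes of the transcript thus did not give the same size. It passed the background criterion on 4 of 4 arrays with *Hottip* gRNAs, 0 of 3 control arrays and 1 of 3 arrays with *Hoxa13* gRNAs. Over all probes tested, 5.94% were higher on every *Hottip* gRNA array than on every control array, and 4.98% than on every *Hoxa13* gRNA array, while 0.425% were called higher than in the control at an adjusted p-value under 0.05 (limma, Benjamini-Hochberg).

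**Figure D1:**
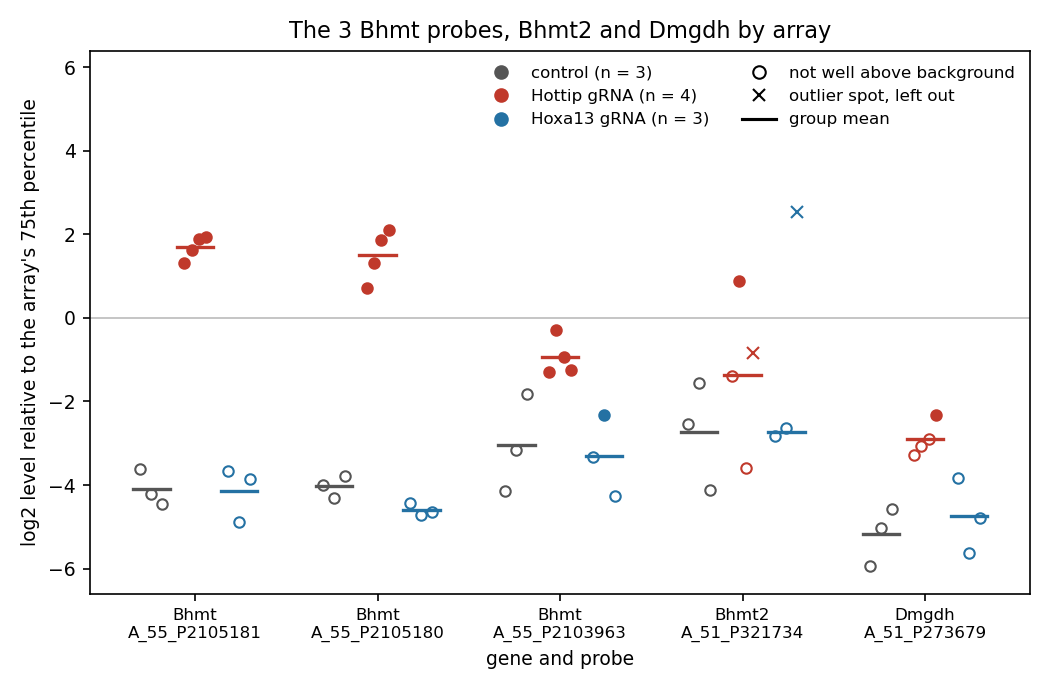
Levels (log2 above or below the array's 75th percentile, vertical axis) of the 3 *Bhmt* probes and of the *Bhmt2* and *Dmgdh* probes on each of the 10 arrays; points are arrays, open where not well above background, crosses are outlier spots that were left out, and bars are group means. On the 2 brighter *Bhmt* probes the 4 *Hottip* gRNA arrays lie between 0.72 and 2.11, above every other array; *Bhmt2* is scattered in every group, and *Dmgdh* is higher on the *Hottip* gRNA arrays at levels mostly not well above background.

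The tandem paralog *Bhmt2*, whose product methylates homocysteine from S-methylmethionine, had 1 probe (A_51_P321734). It stood at −1.40, 0.89 and −3.60 on *Hottip* gRNA replicates 1 to 3, at −2.55, −1.55 and −4.12 on the control arrays and at −2.82 and −2.64 on *Hoxa13* gRNA replicates 1 and 2. The spots of *Hottip* gRNA replicate 4 and *Hoxa13* gRNA replicate 3 were marked as outliers and were left out, although both were well above background, at −0.85 and at 2.54, the highest *Bhmt2* value of any array. With these 2 spots counted the probe was well above background on 3 arrays and so entered the adjusted test. Of the values kept, only that of *Hottip* gRNA replicate 2 was well above background. The groups overlapped, and the differences from the control were 1.37 (standard error 1.06, adjusted p = 0.929, limma) after *Hottip* gRNAs and 0.01 (standard error 1.19, adjusted p = 0.998, limma) after *Hoxa13* gRNAs. With the outlier spots kept the second was 1.76, and in the authors' values the differences were 1.69 and 1.20. The first depended on single arrays in both directions, being 0.24 without *Hottip* gRNA replicate 2, 0.68 without control replicate 3 and 2.48 without *Hottip* gRNA replicate 3.

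The surroundings of the *Bhmt2* spot also differed between the groups. The median level of the 11 by 11 spots around it was 0.21, −0.72, −2.34 and −0.40 on the 4 *Hottip* gRNA arrays and −2.17, −1.24 and −4.64 on the control arrays. With that local median subtracted the difference was −0.16, and the part of the surroundings in the *Bhmt2* values was not tested. A difference of *Bhmt2* between the groups was not detectable with this probe.

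*Dmgdh*, on the other side of the shared start region, had 1 probe (A_51_P273679). It stood at −3.27, −3.07, −2.89 and −2.32 after *Hottip* gRNAs, at −5.93, −5.03 and −4.56 in the control and at −3.82, −5.63 and −4.78 after *Hoxa13* gRNAs. Every *Hottip* gRNA array was higher than each of the other 6 arrays, which overlapped each other. The difference from the control was 2.29 (standard error 0.50) after *Hottip* gRNAs and 0.43 (standard error 0.53) after *Hoxa13* gRNAs, and *Hottip* gRNAs differed from *Hoxa13* gRNAs by 1.86 (standard error 0.50). The two-sided exact permutation test gave p = 0.0286 for *Hottip* gRNAs against the control and against *Hoxa13* gRNAs, the smallest p-value that 4 arrays against 3 allow, and p = 0.5 for *Hoxa13* gRNAs against the control.

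The *Dmgdh* signal was, however, close to the limit of these arrays. The probe was well above background on 1 array, *Hottip* gRNA replicate 4, and the scanner software marked it as positive and significant, a weaker criterion, on 4 of 4 arrays with *Hottip* gRNAs and on 0 of the other 6. It was therefore outside the adjusted test. Entered with all probes it had an adjusted p = 0.178 (limma; unadjusted p = 0.000803), so it was not called. Among the 32842 probes outside the adjusted test, 2.94% were higher on every *Hottip* gRNA array than on every control array, and 1.55% than on every *Hoxa13* gRNA array. Since 3 of the 4 *Hottip* gRNA arrays have only an upper limit too, no fold is given. The lowest level that an array could show was itself higher in that group, at −5.01 to −4.54 on the *Hottip* gRNA arrays, −6.36 to −5.47 on the control arrays and −5.73 to −5.46 on the *Hoxa13* gRNA arrays, and its part in the *Dmgdh* difference was not tested. The local median around the spot differed by 0.35 between the groups, with that median subtracted the difference was 1.94, and with each array left out in turn it lay between 1.91 and 2.60.

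**Figure D2:**
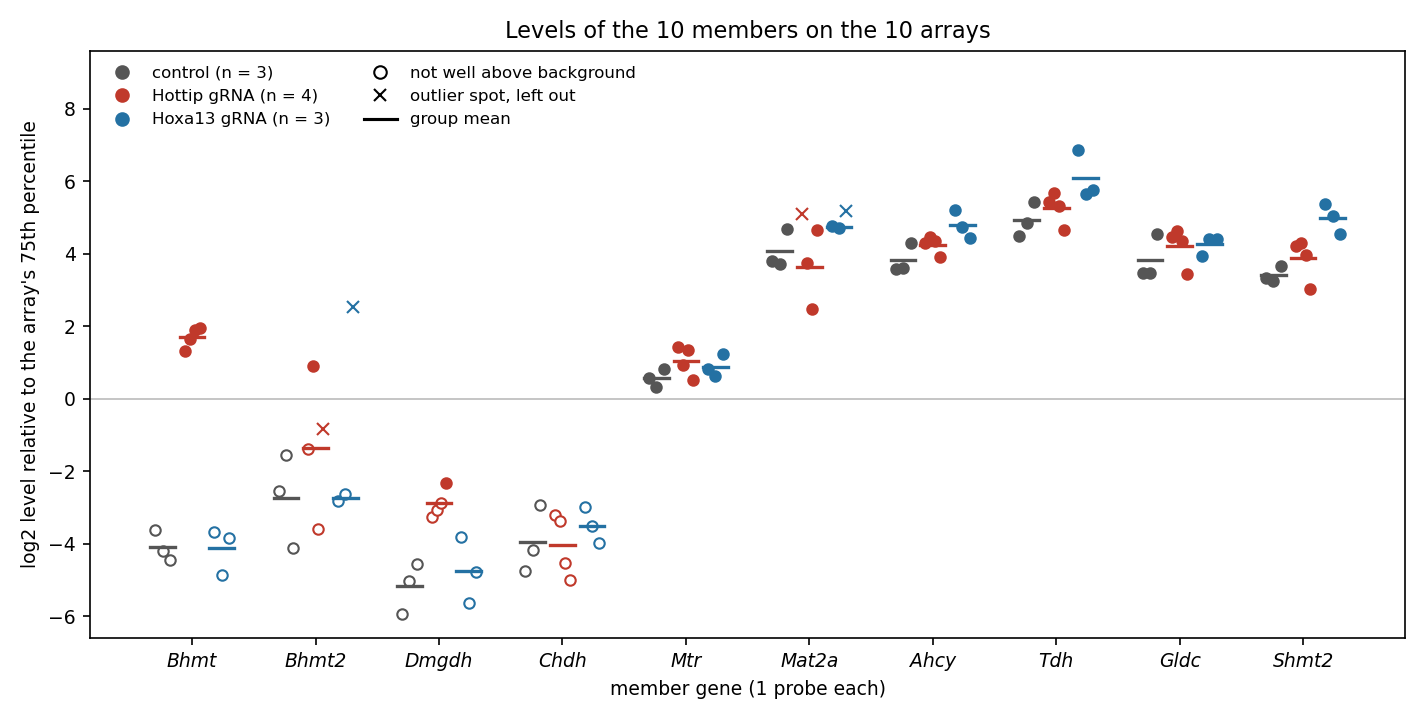
Levels (log2 above or below the array's 75th percentile, vertical axis) of the 10 genes on the 10 arrays, 1 probe per gene; points are arrays, open where not well above background, crosses are outlier spots that were left out, and bars are group means. *Bhmt* is at 1.32 to 1.95 after *Hottip* gRNAs and at −4.88 to −3.62 on the other arrays, while *Mtr*, *Mat2a*, *Ahcy*, *Tdh*, *Gldc* and *Shmt2* are well above background on every array and the *Hottip* gRNA arrays overlap the control arrays for each of them.

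*Chdh*, which supplies betaine, had 3 probes. Its brightest (A_55_P2151817) lay between −5.01 and −3.22 after *Hottip* gRNAs, between −4.75 and −2.95 in the control and between −3.99 and −2.99 after *Hoxa13* gRNAs, and it was well above background on 0 of 10 arrays. A second probe was well above background on control replicate 3 only, at −1.01, and the third on 0 arrays. *Chdh* was thus not well above background on the *Hottip* gRNA arrays that had the high *Bhmt* signal. By the weaker criterion its second probe was positive and significant on *Hottip* gRNA replicates 3 and 4. On the brightest probe the differences of −0.08 (standard error 0.57) and 0.45 (standard error 0.61) from the control have no fold.

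Methionine synthase (*Mtr*), which performs the same methylation as *Bhmt* with a folate donor, stood at 1.41, 0.92, 1.35 and 0.52 after *Hottip* gRNAs, at 0.56, 0.32 and 0.81 in the control and at 0.81, 0.61 and 1.22 after *Hoxa13* gRNAs (A_55_P1997866). The groups overlapped, and the differences from the control were 0.49 (standard error 0.36, adjusted p = 0.915, limma) and 0.32 (standard error 0.38, adjusted p = 0.734, limma). Its other probe gave 0.48 (adjusted p = 0.922, limma) and 0.40 (adjusted p = 0.669, limma). On that probe every *Hottip* gRNA array lay above every control array, as did 5.94% of all probes tested.

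Of the enzymes that follow methionine, *Mat2a* makes S-adenosylmethionine. Its brighter probe (A_51_P500344) stood at 3.75, 2.48 and 4.65 on *Hottip* gRNA replicates 2 to 4, at 3.80, 3.71 and 4.68 in the control and at 4.77 and 4.70 on *Hoxa13* gRNA replicates 1 and 2, with the outlier spots of *Hottip* gRNA replicate 1 and *Hoxa13* gRNA replicate 3 left out. The difference from the control was −0.44 after *Hottip* gRNAs (standard error 0.58, adjusted p = 0.999, limma), while the other probe gave 0.39 (standard error 0.62, adjusted p = 0.999), so the probes disagreed in sign within their errors. After *Hoxa13* gRNAs they gave 0.67 (standard error 0.65, adjusted p = 0.670) and 1.18 (standard error 0.66, adjusted p = 0.493, limma). The spot of the brighter probe lies 9 rows from that of *Bhmt2*, and the local median around it was 2.41 higher on *Hottip* gRNA than on control arrays. With the local median subtracted the brighter probe differed by −2.53 from the control after *Hottip* gRNAs and by −3.74 between the guide pools, where it had been −1.11. S-adenosylhomocysteine hydrolase (*Ahcy*) stood at 4.30, 4.46, 4.35 and 3.91 after *Hottip* gRNAs, at 3.57, 3.61 and 4.31 in the control and at 5.22, 4.74 and 4.42 after *Hoxa13* gRNAs, and differed from the control by 0.43 (standard error 0.36, adjusted p = 0.952, limma) and 0.97 (standard error 0.38, adjusted p = 0.447, limma).

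*Tdh*, which starts the breakdown of threonine, stood at 5.41, 5.67, 5.31 and 4.65 after *Hottip* gRNAs, the first from a saturated spot, at 4.49, 4.85 and 5.43 in the control and at 6.87, 5.64 and 5.75 after *Hoxa13* gRNAs. It differed from the control by 0.34 (standard error 0.43, adjusted p = 0.999, limma) and 1.16 (standard error 0.46, adjusted p = 0.447, limma). *Gldc*, the decarboxylase of the glycine cleavage system, lay between 3.45 and 4.63 after *Hottip* gRNAs, between 3.46 and 4.55 in the control and between 3.95 and 4.42 after *Hoxa13* gRNAs. Its groups overlapped, with differences of 0.40 (standard error 0.42, adjusted p = 0.986, limma) and 0.43 (standard error 0.45, adjusted p = 0.692, limma). *Shmt2*, the mitochondrial serine hydroxymethyltransferase, stood at 4.20, 4.29, 3.96 and 3.03 after *Hottip* gRNAs, at 3.34, 3.24 and 3.66 in the control and at 5.37, 5.04 and 4.54 after *Hoxa13* gRNAs. Each *Hoxa13* gRNA array was above all others for *Shmt2*, with a difference of 1.57 from the control (standard error 0.43, adjusted p = 0.352, limma) and of −1.11 for *Hottip* gRNAs against *Hoxa13* gRNAs (standard error 0.40, adjusted p = 0.332, limma), so neither was called. The two-sided exact permutation test gave p = 0.0286 for the second, as for *Dmgdh* the smallest p-value that 4 arrays against 3 allow. On the slide that held all groups the first was 1.13, from 1 *Hoxa13* gRNA array. On their brighter probes *Ahcy* and *Tdh* also lay above every control array on the *Hoxa13* gRNA arrays, as did 16.7% of all probes tested. On the other probe of each gene these groups overlapped, with differences of 0.71 (standard error 0.40) for *Ahcy* and 0.71 (standard error 0.54) for *Tdh*. With outlier spots left out, the brighter *Mat2a* probe also lay above every control array on the 2 *Hoxa13* gRNA arrays kept. It stood there at 4.77 and 4.70 against at most 4.68, and on the other *Mat2a* probe the groups overlapped. Of all probes tested, 12.8% were lower on every *Hottip* than on every *Hoxa13* gRNA array, as *Shmt2* and, on the arrays kept, the brighter *Mat2a* probe were.

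Of the 9 genes beside *Bhmt*, 7 entered the adjusted test, *Bhmt2* among them only with its outlier spots counted. In each of the 3 comparisons limma called 0 of the 7. Of all probes tested, 0.718% were called for *Hottip* gRNAs against the control, 0.175% for *Hoxa13* gRNAs against the control and 0.381% for *Hottip* against *Hoxa13* gRNAs. At an unadjusted p-value under 0.05 the counts were 0, 3 and 1 of 7, against 8.05%, 11% and 11.9% of all probes tested. Their median difference from the control was 0.43 after *Hottip* gRNAs, where that of all probes tested was −0.03, and 0.67 after *Hoxa13* gRNAs, where it was 0.19. Bright probes as a whole were higher on the *Hoxa13* gRNA arrays: among probes with a mean level over 3 the median difference from the control was 0.63, and 0.15 after *Hottip* gRNAs. In the authors' deposited log2 values *Ahcy* and *Tdh* differed by −0.01 and −0.09 between *Hoxa13* gRNA and control arrays, and *Shmt2* by 0.80.

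A wider list of 44 one-carbon genes was read in the same way. A probe was found for 43 of them (not for *Amd1*), 39 entered the adjusted test, and limma called 0 of 39 in each comparison, with 0, 8 and 5 of 39 below an unadjusted p-value of 0.05, beside 8.05%, 11% and 11.9% of all probes tested. The share of the list for *Hoxa13* gRNAs against the control was thus above that of all probes. The list was read through each gene's brightest probe, and no share was taken over probes of like level. Among probes with a mean level over 3, 88.1% were higher on the *Hoxa13* gRNA arrays than in the control, beside 60.2% of all probes tested. The excess is therefore not read as a trait of the list. Their median difference was 0.09 for *Hottip* gRNAs against the control, 0.26 for *Hoxa13* gRNAs against the control and −0.24 for *Hottip* against *Hoxa13* gRNAs, beside −0.03, 0.19 and −0.26 over all probes tested. After *Hottip* gRNAs 23 of the 39 were higher and 16 lower than in the control. The range ran from −1.42 for *Aldh7a1*, which can oxidise betaine aldehyde (standard error 0.96, adjusted p = 0.879), to 0.65 for *Mtap*, the first enzyme of methionine salvage (standard error 0.68, adjusted p = 0.984).

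By branch, 1 of the 4 choline, betaine and sarcosine genes tested lay above the control after *Hottip* gRNAs and 3 lay below it, as were 4 and 4 of the 8 methionine cycle and transsulfuration genes, 5 and 3 of the 8 methionine salvage and polyamine genes, 4 and 0 of the 4 threonine and glycine cleavage genes and 9 and 6 of the 15 serine and folate genes, with 0 called in any branch. The largest differences after *Hoxa13* gRNAs were 1.27 for *Mat2b*, a regulatory partner of *Mat2a* (standard error 0.52, adjusted p = 0.447, limma), and −1.59 for *Mthfd1l*, a mitochondrial formyltetrahydrofolate synthetase (standard error 0.64, adjusted p = 0.447, limma). Between the guide pools they were 1.70 for *Mthfd1l* (standard error 0.60, adjusted p = 0.321, limma) and −1.87 for *Mthfd2l*, a mitochondrial methylenetetrahydrofolate dehydrogenase (standard error 0.93, adjusted p = 0.442, limma). None of these differences passed the test. On the slide that held all groups, with 1 *Hoxa13* gRNA array, *Mthfd1l* differed by −0.0236 from the control and by 0.13 between the pools, *Mat2b* by 0.72 from the control and *Mthfd2l* by −1.76 between the pools. As the mean of its probes *Mthfd1l* differed by −0.50 and 0.55.

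**Figure D3:**
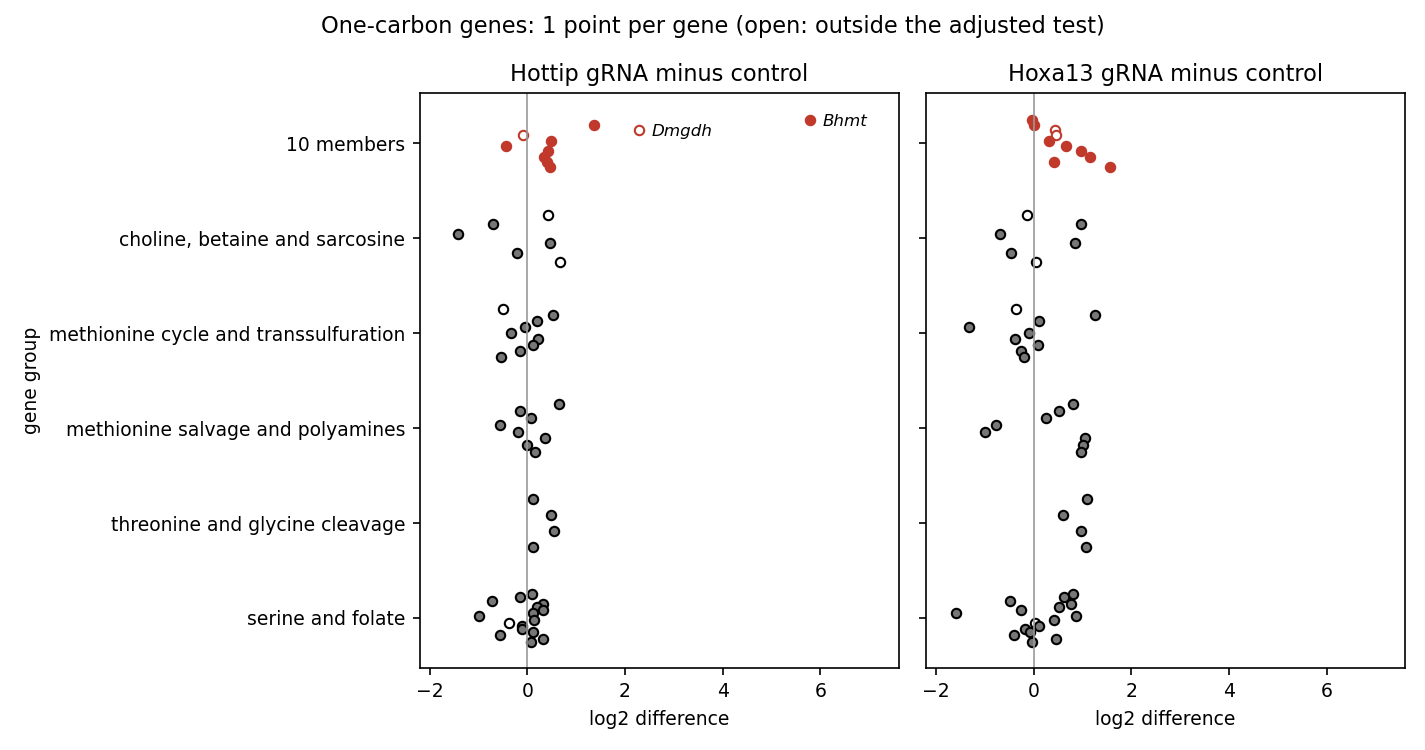
Log2 differences from the control (horizontal axes) after *Hottip* gRNAs (left) and *Hoxa13* gRNAs (right) for the 10 genes and for the wider one-carbon list by branch; each point is 1 gene, open where it was outside the adjusted test. *Bhmt* (5.79) and *Dmgdh* (2.29) stand to the right after *Hottip* gRNAs, and the wider list lies between −1.59 and 1.27 in both panels.

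Along the chromosome, the nearest 3 genes with a probe on each side of *Bhmt*, *Bhmt2* and *Dmgdh* were *Homer1*, *Jmy* and *Gm6109* on one side and *Arsb*, *Lhfpl2* and *Scamp1* on the other. Of these 6 genes 5 entered the adjusted test, *Arsb* being well above background on 0 arrays, and limma called 0 of 5 in each comparison. After *Hottip* gRNAs they ran from −0.17 for *Lhfpl2* (standard error 0.46, adjusted p = 0.999) to 0.54 for *Scamp1* (standard error 0.37, adjusted p = 0.878, limma). After *Hoxa13* gRNAs they ran from −0.29 for *Jmy* (standard error 0.67, adjusted p = 0.873, limma) to 1.16 for *Gm6109* (standard error 0.51, adjusted p = 0.454, limma). For the same 2 genes *Hottip* and *Hoxa13* gRNAs differed by 0.52 and −0.77 (adjusted p = 0.714 and 0.518).

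**Figure D4:**
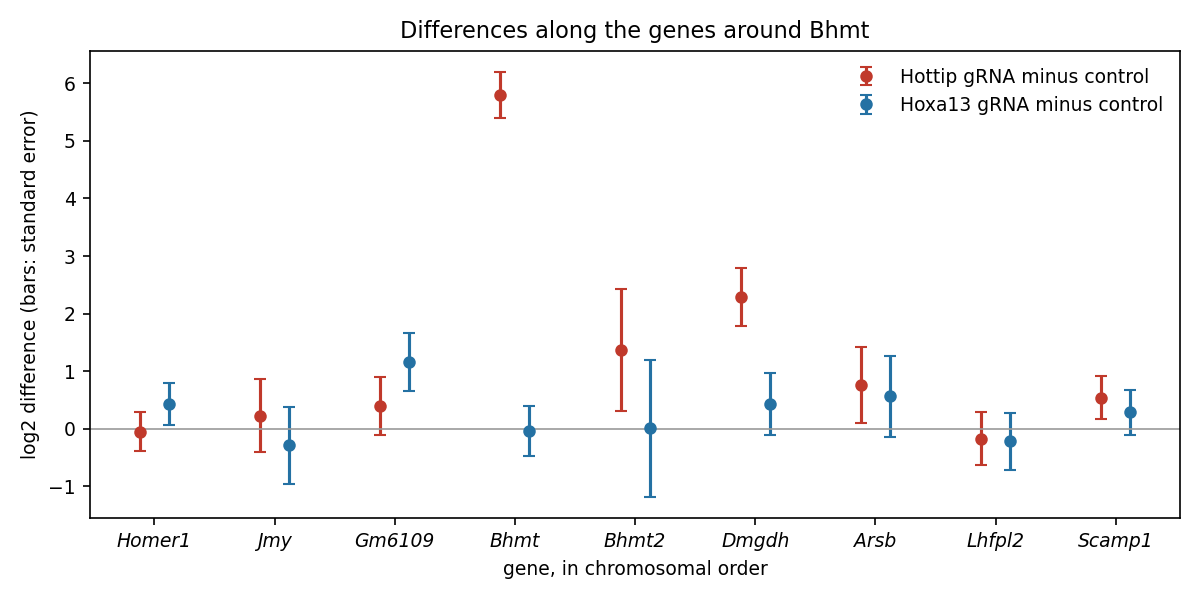
Log2 differences from the control (vertical axis, bars are standard errors) for *Bhmt*, *Bhmt2*, *Dmgdh* and the 6 nearest genes with a probe, in chromosomal order but not to scale. After *Hottip* gRNAs *Bhmt* stands at 5.79, *Dmgdh*, outside the adjusted test, at 2.29, and the 6 surrounding genes lie between −0.17 and 0.76.

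Over the 10 arrays, the named genes whose probes varied most like the brightest *Bhmt* probe among 10247 probes compared were *Atoh1* (Pearson's r = 0.988), *Ak4* (0.987), *Septin4* (0.986), *Hoxa13* (0.984) and *Tchh* (0.98). These values describe arrays that fall into a high group of 4 and a low group of 6, and with the group means removed they were 0.56, 0.69, 0.67, 0.09 and 0.88. *Atoh1* and *Tchh* had mean levels of 0.05 and −0.24 after *Hottip* gRNAs and of −4.54 and −3.77 in the control. *Ak4* was well above background in every group and stood at 0.76 after *Hottip* gRNAs, −1.10 in the control and −0.85 after *Hoxa13* gRNAs. Of the one-carbon genes *Dmgdh* had r = 0.88 with *Bhmt*, and the other 6 with a value on every array lay between −0.28 for *Chdh* and 0.45 for *Mtr*.

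Since *Bhmt* is a gene of liver and kidney, markers of other cell types were set beside it. Of 6 hepatocyte and visceral endoderm markers, *Alb*, *Afp*, *Apoa1* and *Apob* were well above background on 0 arrays, *Ttr* on 1 control array and *Hnf4a* on 5 arrays. Their summed level, on the linear scale relative to the 75th percentile, was 0.314 to 0.932 after *Hottip* gRNAs, 0.232 to 3.33 in the control and 0.295 to 0.611 after *Hoxa13* gRNAs, and 0 were called. Of 7 trophectoderm markers, *Cdx2* (4.06, adjusted p = 0.00105, limma) and *Gata3* (2.72, adjusted p = 0.00649, limma) were called as higher in cells with *Hottip* gRNAs than in control cells, beside 0.425% of all probes tested. Both were also called higher than after *Hoxa13* gRNAs (3.31, adjusted p = 0.00679, and 2.72, adjusted p = 0.0149, limma). *Elf5* and *Hand1* were well above background on 0 arrays. The summed level of 6 of the 7 with a value on all arrays was 11 to 14.5 after *Hottip* gRNAs, 5.02 to 6.60 in the control and 6.83 to 20.6 after *Hoxa13* gRNAs. A linear sum weighs the brightest markers most, and *Krt8* and *Krt18* had the highest mean levels of this list in every group. The part of this list in the *Bhmt* and *Dmgdh* values was not tested. Of the primitive endoderm (6 genes), fibroblast (5) and ES cell (7) markers 0 were called in any comparison. The summed primitive endoderm level was 5.02 to 9.32 after *Hottip* gRNAs, 3.47 to 79.9 in the control and 2.58 to 3.67 after *Hoxa13* gRNAs. Gene by gene, *Hottip* gRNA arrays differed from control arrays by 1.66 for *Gata6* (adjusted p = 0.0929, limma). For *Dab2*, with the highest control mean of this list, the difference was −3.35 (adjusted p = 0.558, limma), and for the others 0.31 to 0.58. *Gata6*, well above background on all 10 arrays, differed by 1.84 between the guide pools (adjusted p = 0.0811, limma). The part of these genes in the *Bhmt* values was not tested.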

How the data were processed

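Total RNA of 10 samples was labelled with Cy3 and hybridised to one-colour Agilent mouse arrays. The authors deposited Feature Extraction 11.5.1.1 output, whose processed signal is a background-subtracted spot intensity, corrected for a trend across the array except on *Hottip* gRNA replicates 3 and 4, where 49.7% and 47.5% of spots share 1 lowest value. A deposited table of log2 values, whose making is not given in the sources used here beyond the tool limma, ranks the spots as median signal minus local background does (Spearman 1.0) with near-equal quantiles on all arrays, and was used as an alternative.

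Log2 of the processed intensity minus each array's 75th percentile was taken, outlier spots were left out and spots of a probe averaged. Symbols came from transcript accessions through the RefSeq gene table (27656 probes). The gene table is of GRCm38.p6 and the array header names mm9, so the arrays' own coordinates were not used. Gene order came from that table, and start windows, their coordinates, motif and guide searches and distances between starts from RefSeq's windows of GRCm38.p6. The 3 groups were fitted with limma 3.58.1 (R 4.3.3) over all probes. The p-values were adjusted by Benjamini-Hochberg over the 22839 probes that passed the well-above-background flag on 3 or more of 10 arrays. Outlier spots counted for this flag although they were left out of the fit. Calls were made at an adjusted p-value under 0.05. For single probes a two-sided exact permutation test over all splits of the arrays was added (Python 3.11.15). It cannot go below 0.0286 for 4 against 3 arrays and 0.1 for 3 against 3. The number of arrays limits the precision. A gene is represented by its brightest probe on average. The 10 genes, the lists and the tests were chosen with earlier results of these data known. Apart from the 10 genes, a list's called genes and its largest rise and fall per comparison were named, with the 5 probes most correlated with *Bhmt*. The fit was tested on simulated data with known changes. Alternatives were normexp background correction (offset 50, on the median signal as the files hold no mean), quantile normalization, the authors' values, local medians of 11 by 11 spots, outlier spots kept, other filters on dim probes, slide and replicate number as blocks, only the slide with all groups, the mean of a gene's probes, and each array left out.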

Additional observations from a re-analysis of the deposited data

How the results depend on the processing

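The count of called genes was 0 for the 9 genes beside *Bhmt*, for the wider one-carbon list and for the 6 neighbours under each of the 21 alternatives in each of the 3 comparisons. *Bhmt* after *Hottip* gRNAs differed from the control by 5.61 to 6.03 with 1 array left out, by 4.66 with normexp, 5.06 in the authors' values and 4.48 as the mean of its 3 probes. Replicate numbers did not pair the arrays (correlations of deviations between −0.233 and 0.141 over 9 same-numbered pairs), and with the replicate block *Bhmt* was 5.71 higher, *Bhmt2* after *Hoxa13* gRNAs −0.89, *Gldc* between the pools 0.23, and 14, 2 and 8 probes were called in all.

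The number of all probes called, on which the background shares rest, was 164, 40 and 87 for *Hottip* gRNAs against the control, *Hoxa13* gRNAs against the control and *Hottip* against *Hoxa13* gRNAs. It fell to 5, 0 and 0 when only probes well above background on all 10 arrays were tested. It was 83 and 25 in the authors' values and 107 and 17 with outlier spots kept (each against the control), 16 for *Hoxa13* gRNAs against the control and 31 between the pools without a filter on dim probes, 126 with local medians and 64 with the slide as a block for *Hoxa13* gRNAs against the control, and 48 between the pools on the slide with all groups. With 1 array left out it ran from 56 to 240, from 3 to 130 and from 11 to 116, 56 being the count without control replicate 2. Leaving out any *Hoxa13* gRNA array gave 3 to 13 for *Hoxa13* gRNAs against the control and 11 to 26 between the pools.

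Differences that were not called changed sign as follows, and the cause was not tested. For *Hottip* gRNAs against the control, *Bhmt2* was −0.16 with local medians, *Mat2a* 0.40 with normexp and 0.82 in the authors' values, *Aldh7a1* 0.17 and 0.24 in the same 2, and *Lhfpl2* 0.66 with local medians. With 1 array left out *Mat2a* ran from −0.95 to 0.13, *Lhfpl2* from −0.46 to 0.30 and *Mtap* from −0.30 to 1.20, the lowest without control replicate 3. For *Hoxa13* gRNAs against the control, *Mat2a* was −0.0175 and *Gldc* −0.0252 with quantile normalization, *Ahcy* −0.0147, *Tdh* −0.085 and *Gldc* −0.21 in the authors' values, and *Jmy* 0.0004 with normexp, while *Bhmt2* ran from −0.68 to 0.60 and *Jmy* from −0.74 to 0.12 with 1 array left out. Between the pools, *Bhmt2* was −0.85 with local medians and −0.26 with outlier spots kept, *Mtr* −0.17 with the slide as a block and on the slide with all groups, *Ahcy* 0.0095, *Tdh* 0.30, *Gldc* 0.34 and *Gm6109* 0.0562 with quantile normalization, *Ahcy* 0.20, *Tdh* 0.21 and *Gldc* 0.25 in the authors' values and *Gldc* 0.0121 with local medians, and −0.18 to 0.23 with 1 array left out. *Chdh* after *Hottip* gRNAs ran from −0.48 to 0.42 against the control with 1 array left out and was 0.25 with the replicate block. After *Hoxa13* gRNAs *Chdh* was −0.04 on the slide with all groups and as the mean of its probes. With 1 array left out, *Dmgdh* then ran from −0.03 to 0.87 and *Bhmt* from −0.27 to 0.33 against the control. *Dmgdh* stayed between 1.55 and 2.60 above the control after *Hottip* gRNAs and between 1.02 and 2.32 above *Hoxa13* gRNAs. Probes not well above background, such as those of *Chdh* and *Dmgdh*, limit what could be seen of small changes.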
